A study of Mus musculus with 12 samples.

Results

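The voltage-gated calcium channel of skeletal muscle and the small GTPases that restrain it were described here through 8 genes: the channel subunit genes Cacna1s, Cacnb1, Cacna2d1, Cacng1 and Cacng6, and the RGK GTPase genes Rrad, Gem and Rem1. The genes were chosen by name, and all 8 were found among the 27597 genes or names with a probe on the array, through 10 probes. Of the 8 genes, 7 were well above background on all 12 arrays, and Rem1 was so in all control muscles and in some denervated ones. All 8 were among the 15221 genes tested.

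RNA came from the whole gastrocnemius, a calf muscle, of adult male CD1 mice, and each of 12 one-colour Agilent arrays was hybridised with 1 sample. The 4 groups held 3 arrays each: innervated control muscle of wild-type (WT) mice, WT muscle denervated for 14 days, control muscle of Smad4 knockout (KO) mice, and KO muscle denervated for 14 days. Smad4 is the shared partner of the receptor-activated Smads in TGF-beta and BMP signalling. The design text describes separate animals for the 3 experiments of a condition, but the labels name neither the promoter nor the cell type in which Smad4 was deleted, nor whether a control muscle is the other leg of a denervated mouse.

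The channel is a complex. Cacna1s encodes the pore, CaV1.1, which senses the voltage of the transverse tubule membrane and opens the ryanodine receptor of the sarcoplasmic reticulum, the step that couples excitation to contraction. The beta subunit encoded by Cacnb1 carries the pore to the triad, the alpha2delta subunit encoded by Cacna2d1 lies outside the membrane, and Cacng1 encodes the gamma subunit of skeletal muscle, which limits the current. Cacng6 encodes another gamma subunit found in striated muscle. RGK GTPases (Rad, encoded by Rrad, Gem, Rem and Rem2) bind the beta subunit and reduce the current through the channel.

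The targeted gene followed the labels. On the log2 scale used throughout, in which 0 is the 75th percentile of an array's signal, Smad4 lay between 3.59 and 4.02 in WT control muscle and between 2.19 and 2.42 in KO control muscle, and between 3.18 and 3.49 in WT denervated and 1.77 and 2.05 in KO denervated muscle. Chrna1, an acetylcholine receptor subunit that denervated fibres make along their length, rose by 4.51 in WT and 4.36 in KO muscle, and Myog, encoding myogenin, by 4.50 and 3.85. The 75th percentile lay between 219 and 364 intensity units, between 49.9% and 56.4% of probes were well above background, and no spot was saturated. Arrays of 1 group correlated at 0.974 to 0.985.

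In WT muscle, denervation was followed by a rise of Rrad and Cacng1 and a fall of Cacng6 and Rem1, while Cacna1s, Cacnb1, Cacna2d1 and Gem did not pass the test. Thus 4 of 8 genes were called at an adjusted p under 0.05 (limma), where 39.3% of all genes tested were called: 2 rose, as 18.7% of all genes did, and 2 fell, as 20.6% did. In KO muscle the same 4 genes were called in the same directions, Cacna2d1 fell as well, and 5 of 8 genes were called against 46.9% of all genes: 2 rose, as 23.7% of all genes did, and 3 fell, as 23.2% did. Groups did not overlap for 5 of 8 genes in WT muscle, against 52.6% of all genes, and for 7 of 8 in KO muscle, against 56.2%. The shares called are near those of all genes, so the counts say nothing particular about the channel. They include Rem1, which passed the filter through its control groups alone. The median change over the 8 genes was -0.05 in WT and -0.49 in KO muscle, beside medians of -0.02 and 0.00 over all genes.

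**Figure D1:**
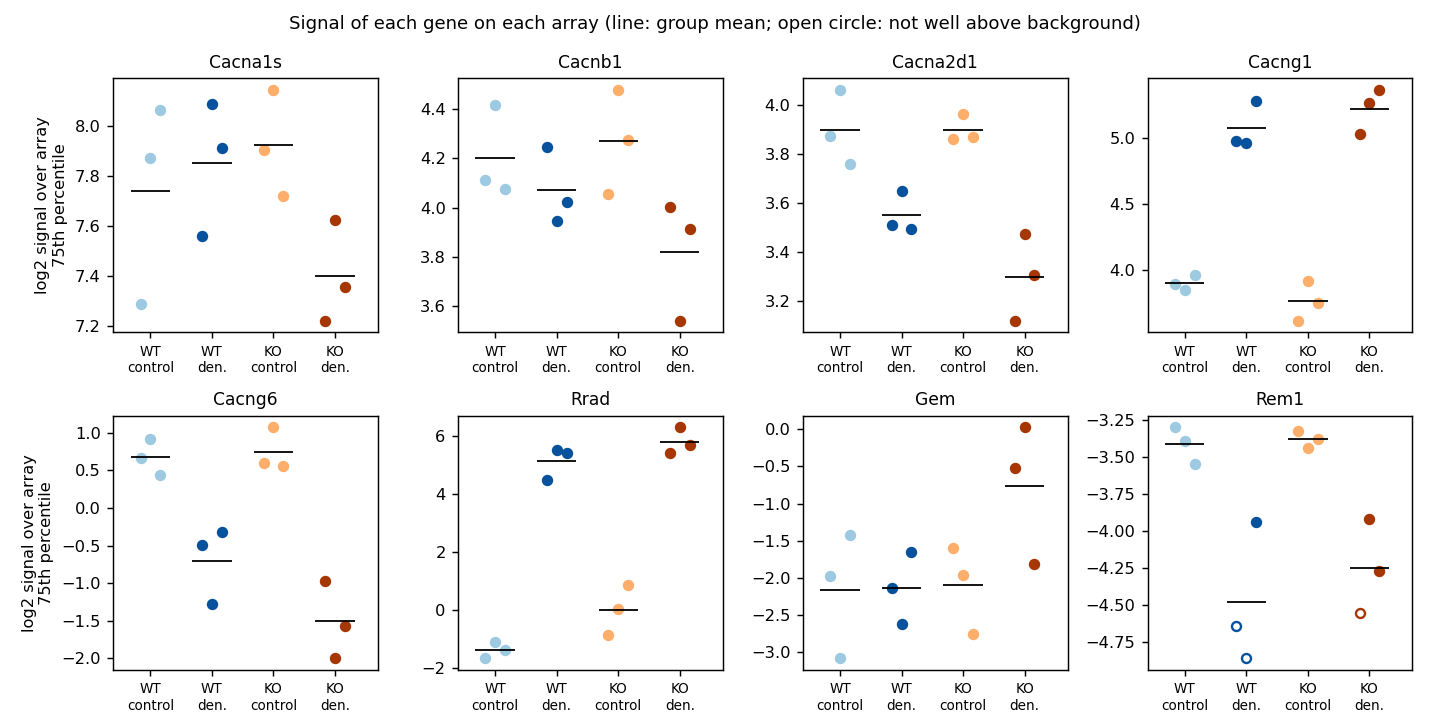
Each panel shows 1 gene, with a point per array and a line at the group mean, on the log2 scale relative to the array's 75th percentile; the vertical axes differ between panels. Denervated arrays lie above the control arrays for Rrad and Cacng1 and below them for Cacng6 and Rem1 in both genotypes, and open circles mark the 3 denervated arrays on which Rem1 was not well above background.

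Rad, the product of Rrad, is an RGK GTPase first known from muscle. Its probe (chr8:107517761-107517820, minus strand, mm8 positions as in the files) read -1.66, -1.10 and -1.38 on the 3 WT control arrays and 4.50, 5.53 and 5.43 on the 3 WT denervated arrays. On KO arrays it read -0.86, 0.04 and 0.87 in control muscle and 5.44, 6.31 and 5.70 in denervated muscle. Denervated and control arrays were thus far apart in both genotypes. In intensity units, the WT control arrays lay between 93.0 and 132 and the WT denervated arrays between 6972 and 12833. The log2 change was 6.53 ± 0.41 (SE, n = 3 and 3), or 92.4-fold (adjusted p = 1.02e-06), in WT muscle; with normexp background correction it was 5.33. In KO muscle it was 5.80 ± 0.41, or 55.8-fold (adjusted p = 1.96e-06). The difference between the 2 changes was -0.73, with a 95% interval from -2.02 to 0.56 (adjusted p = 0.748).

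Rrad was also the 1 gene of the 8 whose control groups did not overlap between genotypes, all 3 KO control arrays lying above all 3 WT control arrays. The difference was 1.39 ± 0.41, with an unadjusted p of 0.0062 and an adjusted p of 0.907 over all genes, so it did not pass. In that comparison 8.37% of all genes had groups that did not overlap. In denervated muscle the 2 genotypes overlapped, with a difference of 0.66 ± 0.41 (adjusted p = 0.469).

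Gem, the second RGK GTPase, behaved otherwise than Rrad in WT muscle. Its probe (chr4:11641396-11641455, plus strand, mm8) read -1.98, -3.08 and -1.43 on WT control arrays 1 to 3 and -2.14, -2.63 and -1.65 on WT denervated arrays 1 to 3. The lowest array carried number 2 and the highest number 3 in both groups, and the groups overlapped fully. On KO arrays it read -1.60, -1.96 and -2.75 in control muscle and -0.52, 0.03 and -1.81 in denervated muscle. There 2 of 3 denervated arrays lay above all control arrays and the third lay among them. The change was 0.02 ± 0.52 in WT muscle (adjusted p = 0.976), with a 95% interval from -1.12 to 1.17. It was 1.34 ± 0.52 in KO muscle (adjusted p = 0.0544), just outside the threshold, and between 0.94 and 1.86 when single arrays were left out. It was called under 6 of 24 other settings: without WT control replicate 2 or 3, KO control replicate 1 or KO denervated replicate 3 (adjusted p = 0.0125 to 0.0487), over genes well above background on all 12 arrays (adjusted p = 0.0408) and with a block of replicate number within genotype. The difference between the 2 changes, 1.31 ± 0.74, did not pass (adjusted p = 0.615), nor did that between KO and WT denervated muscle, 1.37 ± 0.52 (adjusted p = 0.222).

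Rem1, encoding the GTPase Rem, was dim. Its probe (chr2:152319874-152320674, plus strand, mm8) read -3.30, -3.39 and -3.54 on WT control arrays and -4.64, -4.86 and -3.93 on WT denervated arrays, of which only 1 was well above background. On KO arrays it read -3.32, -3.44 and -3.37 in control muscle and -4.55, -3.92 and -4.27 in denervated muscle, where 2 of 3 were well above background. No denervated array reached a control array in either genotype. The change was -1.07 ± 0.23 in WT (adjusted p = 0.00394) and -0.87 ± 0.23 in KO muscle (adjusted p = 0.0098). The probe was kept through its control groups alone, so these p-values are not independent of the filter. These calls depended on the background correction: with normexp correction of the mean signal the changes were 0.12 and -0.03 (adjusted p = 0.887 and 0.974).

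Many markers of blood vessels were also lower after denervation, as were many Schwann cell markers and triad genes described below. Of 8 endothelial markers, 5 fell in WT and 6 in KO muscle, beside 20.6% and 23.2% of all genes, none rose, and all 8 were well above background in at least 1 group, so that no defining marker was at 0. Their summed signal, in multiples of the 75th percentile, went from 19.4 to 24.9 in WT control muscle to 8.13 to 14.8 after denervation, and from 24.4 to 24.5 in KO control muscle to 11.5 to 14.4. Of 9 markers of smooth muscle and pericytes, 5 fell in WT (55.6%, beside 20.6% of all genes) and 3 in KO muscle (33.3%, beside 23.2%). None was called higher, though changes in KO muscle ran from -1.53 to 0.55. Their sums, to which the brightest markers add most, were 258 to 335 against 175 to 206 in WT and 284 to 337 against 111 to 139 in KO. The median change of the 9 markers was -0.63 in WT and -0.43 in KO muscle, so sums and medians order the genotypes differently. The part of these cells in the lower Rem1 signal was not tested. In RNA of whole muscle, fewer cells of a type and less RNA per cell cannot be told apart. The fourth RGK GTPase, Rem2, was not well above background on any array.

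The pore gene Cacna1s was the member whose answer depended most on the probe and the scaling. The probe with the higher signal (chr1:137935854-137935913, plus strand, mm8) read 7.29, 7.87 and 8.06 on WT control arrays and 7.56, 8.09 and 7.91 on WT denervated arrays. It read 7.90, 8.14 and 7.72 on KO control arrays and 7.22, 7.62 and 7.36 on KO denervated arrays. WT groups overlapped in part, whereas all 3 KO denervated arrays lay below all 3 KO control arrays. The change was 0.11 ± 0.22 in WT (adjusted p = 0.718) and -0.52 ± 0.22 in KO muscle (adjusted p = 0.0742). After quantile normalization the values became 0.46 (adjusted p = 0.0233) and 0.19 (adjusted p = 0.277), so the direction in KO muscle turned with the scaling.

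The second Cacna1s probe (chr1:137915100-137917068, plus strand, mm8) read 1.17, 1.66 and 0.83 on WT control arrays and 0.78, 0.48 and 1.22 on WT denervated arrays. On KO arrays it read 0.82, 1.26 and 1.19 in control muscle and 0.03, -1.46 and 0.02 in denervated muscle. It changed by -0.39 ± 0.38 in WT (adjusted p over all kept probes = 0.439) and fell by 1.56 ± 0.38 in KO muscle (adjusted p over all kept probes = 0.00588), where 1 array, KO denervated replicate 2, lay well below the other 2. When the kept probes of each gene were averaged, Cacna1s fell in KO muscle (-1.04, adjusted p = 0.00162) and was lower in KO than in WT denervated muscle (-0.88, adjusted p = 0.0494). The files do not say which transcripts each probe detects. The probes also differed in brightness. In intensity units, the brighter one ran from 45799 (WT control replicate 1) to 71755 (WT denervated replicate 3). The dimmer one ran from 99.98 (KO denervated replicate 2) to 894 (WT control replicate 2). Whether the brighter probe understates changes at such signal was not tested, so the probes may not weigh equally.

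**Figure D2:**
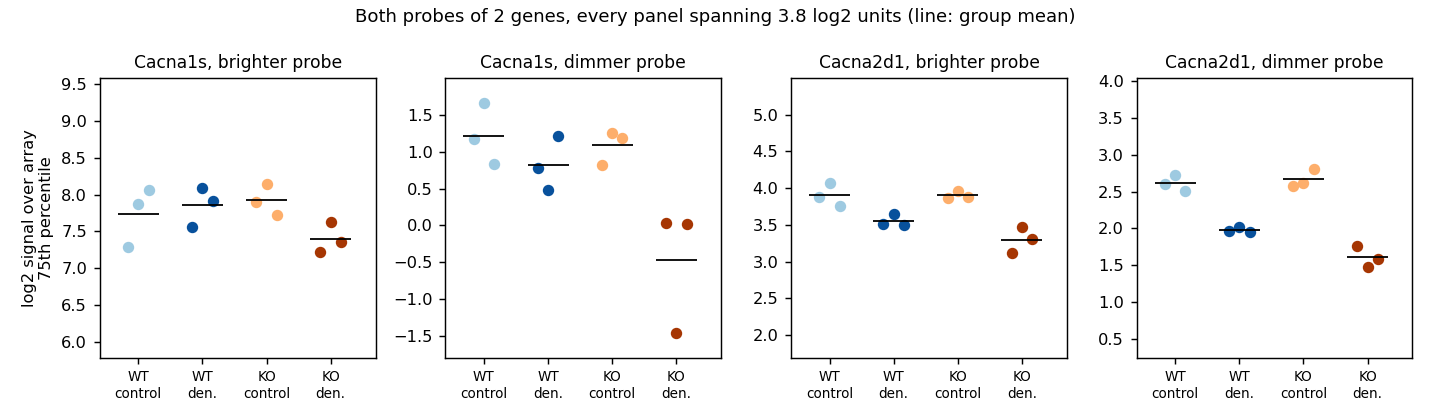
Both probes of Cacna1s and of Cacna2d1, with a point per array and a line at the group mean, on the log2 scale relative to the array's 75th percentile; every panel spans the same range. The dimmer probe of Cacna1s shows the KO denervated arrays lowest, with 1 array at -1.46. On its brighter probe the groups lie closer together, with all KO denervated arrays below all KO control arrays. Both Cacna2d1 probes show lower denervated arrays in each genotype.

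The alpha2delta gene Cacna2d1 fell on both of its probes in KO muscle and on 1 of them in WT muscle. The probe with the higher signal (chr5:15882556-15882615, plus strand, mm8) read 3.88, 4.06 and 3.76 on WT control arrays and 3.51, 3.65 and 3.49 on WT denervated arrays, and 3.86, 3.96 and 3.87 on KO control and 3.12, 3.47 and 3.31 on KO denervated arrays. Denervated and control arrays did not overlap in either genotype, and neither did the denervated arrays of the 2 genotypes, as for 21.5% of all genes. The change was -0.35 ± 0.14 in WT (adjusted p = 0.0641) and -0.60 ± 0.14 in KO muscle (adjusted p = 0.00419); with normexp correction the KO change was -0.67 (adjusted p = 0.103). The second probe (chr5:15870764-15870823, plus strand, mm8) read 2.61, 2.73 and 2.51 on WT control and 1.96, 2.01 and 1.94 on WT denervated arrays, and 2.57, 2.62 and 2.81 on KO control and 1.76, 1.47 and 1.58 on KO denervated arrays. Here too the denervated arrays lay below the control arrays in each genotype, and the KO denervated arrays were lowest. It fell by 0.64 ± 0.13 in WT (adjusted p over all kept probes = 0.00323) and by 1.06 ± 0.13 in KO muscle (adjusted p over all kept probes = 9.5e-05). In WT muscle, therefore, the call for this gene rests on which probe stands for it.

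Cacnb1, whose product is the subunit that RGK GTPases bind, passed the test in neither genotype. Its probe (chr11:97821355-97821787, minus strand, mm8) read 4.11, 4.41 and 4.08 on WT control arrays and 4.25, 3.95 and 4.02 on WT denervated arrays, and 4.05, 4.48 and 4.27 on KO control and 4.004, 3.54 and 3.91 on KO denervated arrays. The WT groups overlapped and the KO groups did not. The change was -0.13 ± 0.18 in WT, with a 95% interval from -0.51 to 0.26 (adjusted p = 0.598), and -0.45 ± 0.18 in KO muscle, from -0.83 to -0.06 (adjusted p = 0.0545). The KO change was called under 5 of 24 other settings, among them scaling by the array median (-0.51, adjusted p = 0.0222) and leaving out KO control replicate 1 or KO denervated replicate 1.

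The 2 gamma subunit genes moved in opposite directions. Cacng1 (chr11:107519872-107519931, minus strand, mm8) read 3.90, 3.85 and 3.96 on WT control arrays and 4.97, 4.96 and 5.28 on WT denervated arrays. On KO arrays it read 3.61, 3.92 and 3.75 in control muscle and 5.03, 5.26 and 5.36 in denervated muscle. The groups were clearly apart in both genotypes, and the genotypes overlapped in control and in denervated muscle. The rise was 1.17 ± 0.15, or 2.25-fold, in WT (adjusted p = 1.19e-04) and 1.46 ± 0.15, or 2.75-fold, in KO muscle (adjusted p = 1.88e-05). The difference between the 2 rises was 0.29, with a 95% interval from -0.17 to 0.74.

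Cacng6, for whose probe the files give no position, read 0.67, 0.92 and 0.43 on WT control arrays and -0.49, -1.28 and -0.32 on WT denervated arrays. On KO arrays it read 0.60, 1.07 and 0.55 in control muscle and -0.97, -2.00 and -1.56 in denervated muscle. Every denervated array lay below every control array. The change was -1.37 ± 0.30, or 2.59-fold lower, in WT (adjusted p = 0.00439) and -2.25 ± 0.30, or 4.76-fold lower, in KO muscle (adjusted p = 1.44e-04); with normexp correction the KO change was -1.46. The difference between the 2 changes, -0.88 ± 0.43, did not pass (adjusted p = 0.560), nor did that between KO and WT denervated muscle, -0.81 ± 0.30 (adjusted p = 0.214, unadjusted p = 0.0212).

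**Figure D3:**
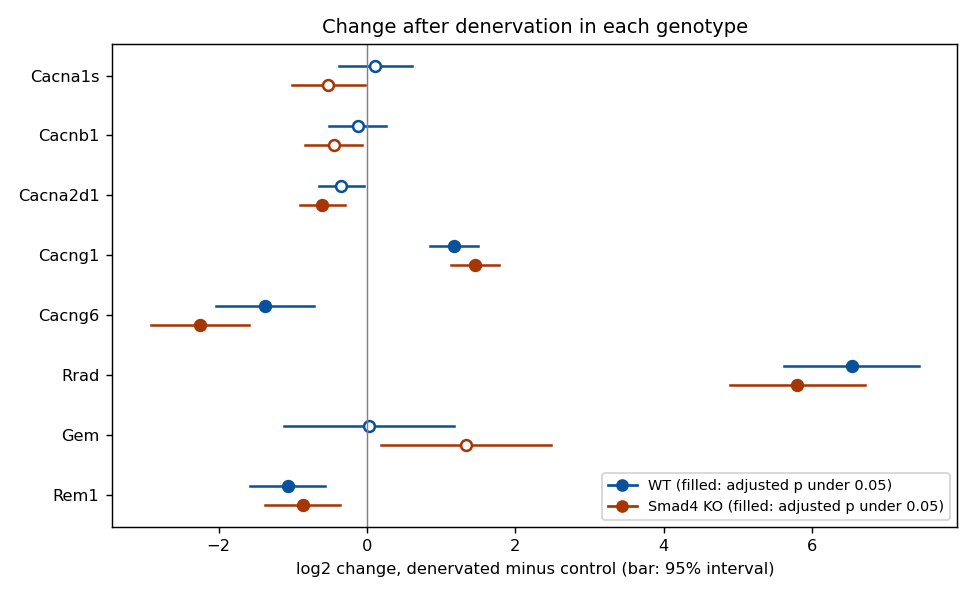
Log2 change after denervation (denervated minus control) of each gene in WT and in Smad4 KO muscle, with 95% intervals from limma; filled points passed an adjusted p under 0.05. Rrad lies at 6.53 and 5.80, Cacng1 at 1.17 and 1.46 and Cacng6 at -1.37 and -2.25, and the intervals of the 2 genotypes overlap for every gene.

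Between genotypes, none of the 8 genes passed the test (limma) in control muscle, where 0.00657% of all genes were called, in denervated muscle, where 2.19% were, or for the interaction of denervation and genotype, where 0.184% were. At an unadjusted p under 0.05, 1 gene (Rrad) differed in control muscle, 2 (Gem and Cacng6) in denervated muscle and 0 for the interaction, where 4.05%, 16.3% and 9.44% of all genes did. These are not statements that the genotypes act alike: the 95% interval of KO against WT in denervated muscle ran from 0.23 to 2.52 for Gem and from -1.48 to -0.15 for Cacng6.

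WT denervated replicates 2 and 3 lay on slide 4, scanned on day 2, without any WT control array, so slide and denervation are partly confounded in WT muscle. With slide as a fixed block, 4492 genes were called in WT muscle, from 5977. Values within slides, which carry 1 or 2 arrays a group and no test, kept the directions of the called changes. In WT muscle that comparison is of 1 array against 1. On slide 1 the WT changes were 6.16 for Rrad, 1.08 for Cacng1, -1.16 for Cacng6 and -1.34 for Rem1. On slides 3 and 4 the KO changes were 4.84 and 7.17 for Rrad, 1.61 and 1.65 for Cacng1, -2.12 and -2.59 for Cacng6, -0.90 and -0.59 for Rem1, and -0.57 and -0.39 for Cacna2d1. Gem differed between genotypes in control muscle by 1.12 on slide 2 and by -1.32 on slide 3, and the 2 slides disagreed in sign.

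To show the sequence in front of the pore gene and of the RGK gene that fell in both genotypes, the bases upstream of their RefSeq starts are printed from build GRCm38.p6, 5′ to 3′, with motif matches in capitals. Of the 8 genes, 5 had an entry, and Rrad, Gem and Cacng1 had none. The motifs searched on both strands were the E-box CANNTG bound by myogenic factors, its CAGCTG form, which is part of the first, the Smad box CAGAC, the cAMP response half-site TGACG, the AP-1 site TGANTCA and the MEF2 site.
Cacna1s, chr1:136052561-136052805, plus strand: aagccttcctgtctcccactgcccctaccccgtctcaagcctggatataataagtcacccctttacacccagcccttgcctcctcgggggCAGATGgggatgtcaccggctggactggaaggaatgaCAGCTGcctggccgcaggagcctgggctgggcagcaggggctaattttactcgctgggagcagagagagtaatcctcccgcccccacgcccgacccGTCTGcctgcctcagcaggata
Rem1, chr2:152626758-152627007, plus strand: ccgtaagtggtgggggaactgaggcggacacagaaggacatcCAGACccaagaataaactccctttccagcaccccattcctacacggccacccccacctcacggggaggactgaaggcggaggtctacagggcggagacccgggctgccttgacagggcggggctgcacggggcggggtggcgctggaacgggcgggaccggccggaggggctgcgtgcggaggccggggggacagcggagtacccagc
The printed Cacna1s bases stop at the gene's first annotated base, 5 bases short of the start in the promoter table, from which positions are counted. The Cacna1s window held E-boxes 160 and 123 bases before the start, the second in the CAGCTG form, and a Smad box, on the opposite strand, 27 bases before it. The Rem1 window held no E-box and 1 Smad box, 208 bases before the start. Over the 250 bases before the start of all 32851 promoters of the table, 66.2% held an E-box, 13% the CAGCTG form, 42.2% a Smad box, 17.8% the half-site, 6.75% the AP-1 site and 2.92% the MEF2 site, and matches are given as a description of the letters. The Rem1 window was 69.2% G or C, with 19 CG pairs in 250 bases, and the Cacna1s window 62%, with 9 in 245 bases.

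Other subunits of calcium channels were mostly not measurable in these muscles. Of 9 other pore genes, 8 had a probe and 2 were tested. Cacna1h, the pore of a T-type channel of young muscle, changed by -1.14 ± 0.33 in WT muscle (adjusted p = 0.0176), with 1 of 3 arrays well above background in each WT group. In KO muscle, where all 3 control arrays and no denervated array were above background, it was at least 2.18-fold lower after denervation; it was kept through the KO control arrays alone, so no test is given for that comparison. Cacna1g, the other one tested, changed by 0.02 and 0.39 and did not pass. Of 12 other auxiliary subunit genes, all with a probe, 5 were tested, and in each genotype 1 rose and 1 fell (20% each). Of all genes, 18.7% rose and 20.6% fell in WT and 23.7% rose and 23.2% fell in KO muscle. The shares are near those of all genes, so the counts say nothing particular about these subunits. Cacna2d3, an alpha2delta gene, rose by 0.97 ± 0.30 in WT (adjusted p = 0.0226) and by 0.91 ± 0.30 in KO muscle (adjusted p = 0.0250). Cacng7, which shares a cluster with Cacng6 and Cacng8 on chromosome 7 with no other protein-coding gene between them in the GRCm38.p6 table, fell by 1.73 ± 0.25 in WT muscle (adjusted p = 3.45e-04), with 2 of 3 denervated arrays above background. In KO muscle it was at least 2.65-fold lower, no denervated array being above background. Cacng7 was kept through its control groups alone, so no test is given for KO muscle. Its WT p-value and its place in both counts of falls are not independent of that filter. Cacnb3, Cacng2 and Cacna2d2 did not pass in either genotype, with changes between -0.48 and 0.20. For such bounds an array on which the probe was dim counts as the lowest signal that passed on that array, or as the probe's own where that was larger, which is approximate.

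**Figure D4:**
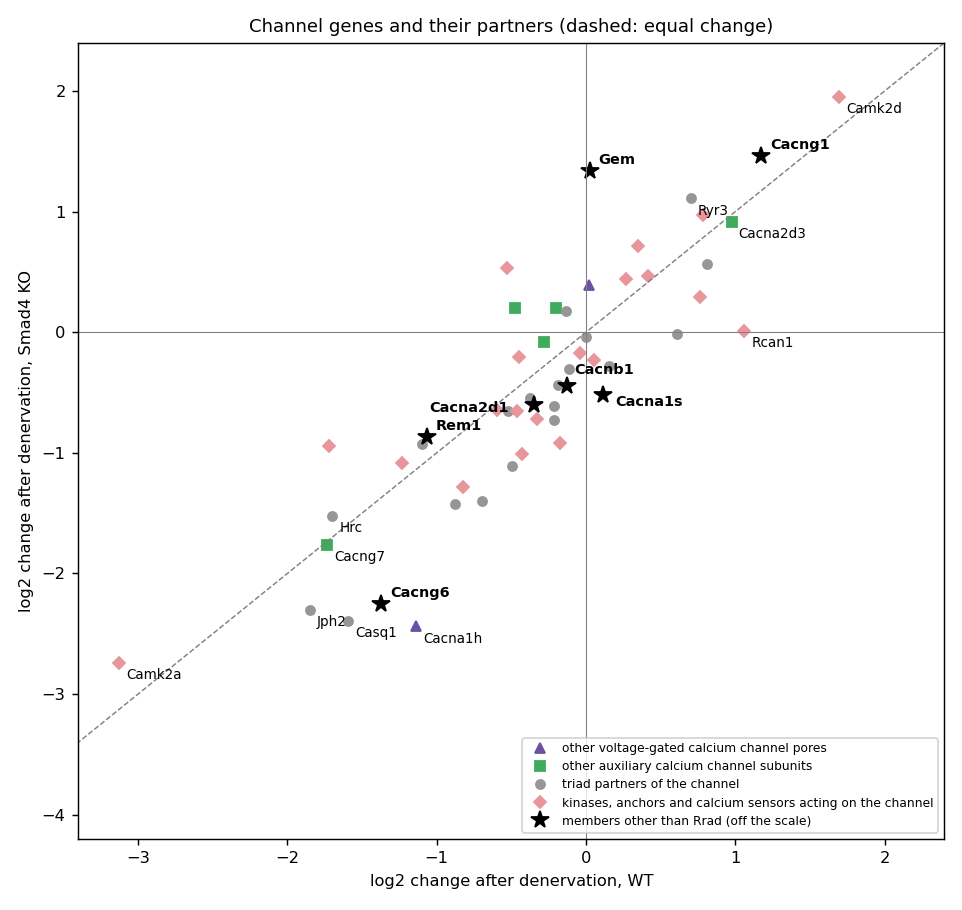
Log2 change after denervation in WT (horizontal) and Smad4 KO muscle (vertical) of the members other than Rrad, of other calcium channel genes, of triad partners and of regulators of the channel; the dashed line marks equal change. Cacng1 lies with Camk2d at the upper right, Cacng6 with Casq1, Jph2 and Cacna1h at the lower left, and Gem stands above the line at 0.02 and 1.34. Cacna1h, Cacng7 and Ryr3 are drawn at measured values. In KO denervated muscle Cacna1h and Cacng7, and in KO control muscle Ryr3, were not well above background on any array.

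Genes of 19 proteins that sit with the channel at the triad were tested. In WT muscle 2 rose and 8 fell (42.1%), where 18.7% of all genes rose and 20.6% fell. In KO muscle 2 rose and 11 fell (57.9%), where 23.7% rose and 23.2% fell. Their changes had medians of -0.22 and -0.61, beside -0.02 and 0.00 over all genes. Jph2, a junctophilin that holds the transverse tubule to the sarcoplasmic reticulum, changed by -1.85 ± 0.20 (adjusted p = 3.91e-05) and -2.30 ± 0.20 (adjusted p = 6.70e-06). Casq1, the calcium store protein of fast fibres, changed by -1.59 ± 0.25 and -2.39 ± 0.25. Cav3, a caveolin of the muscle membrane, changed by -0.50 ± 0.14 and -1.11 ± 0.14. Srl, encoding sarcalumenin, changed by -0.70 ± 0.15 and -1.40 ± 0.15 and was also lower in KO than in WT denervated muscle (-0.67 ± 0.15, adjusted p = 0.0499). All of these denervation changes passed the test. Cacna1s, on the probe that stood for it, and Cacnb1 passed in neither genotype. Ryr3, a ryanodine receptor gene, was kept through its denervated groups alone. In KO muscle, where no control array was above background, it was at least 1.71-fold higher after denervation, and no test is given. Any place of Ryr3 in the counts of rises above is not independent of that filter.

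Of 12 muscle fibre markers, 1 (Ckm) fell in WT muscle (8.33%, beside 20.6% of all genes) and 5 in KO muscle (41.7%, beside 23.2%), and none rose. Their summed signal went from 2945 to 3464 in WT control muscle to 2469 to 3508 after denervation, and from 3487 to 3699 in KO control muscle to 2136 to 2892. No marker was at 0. Of 8 Schwann cell markers, 4 fell in WT (50%, beside 20.6% of all genes) and 5 in KO muscle (62.5%, beside 23.2%). Their sums were 6.88 to 11.1 in control against 2.65 to 3.27 in denervated muscle in WT, and 6.03 to 13.0 against 3.41 to 3.60 in KO. Of 8 macrophage markers, 1 (Cd68) rose in WT (12.5%, beside 18.7% of all genes) and 4 in KO muscle (50%, beside 23.7%), with sums of 5.97 to 7.26 against 8.01 to 10.1, and 4.49 to 9.56 against 9.38 to 12.03. The part of these cells in the changes of the 8 genes was not tested.

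Among 20 kinases, anchors and calcium sensors that act on the channel, 4 rose and 4 fell in WT and 3 rose and 8 fell in KO muscle. The shares called, 40% and 55%, lie near the 39.3% and 46.9% of all genes. The genes of the calcium-dependent kinase CaMKII parted: Camk2a changed by -3.13 ± 0.23 in WT and -2.74 ± 0.23 in KO muscle, and Camk2d by 1.70 ± 0.22 and 1.95 ± 0.22, all past the test. Akap1, an anchor of protein kinase A on mitochondria, changed by -0.82 ± 0.15 and -1.28 ± 0.15, and Akap6, an anchor at the nuclear envelope and reticulum, by 0.78 ± 0.18 and 0.97 ± 0.18. Rcan1, an inhibitor of calcineurin, was lower in KO than in WT denervated muscle, by a difference of -1.10 ± 0.20 (adjusted p = 0.0186), having risen by 1.06 ± 0.20 in WT and changed by 0.01 ± 0.20 in KO muscle. It did not pass the test of the interaction (adjusted p = 0.220).

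Of 13 other binding partners of RGK GTPases tested, 2 rose in WT muscle, and 3 rose and 2 fell in KO muscle. The shares called, 15.4% and 38.5%, lie below the 39.3% and 46.9% of all genes. Ezr, encoding ezrin, to which Gem binds, rose by 0.66 ± 0.21 in WT (adjusted p = 0.0266) and by 1.16 ± 0.21 in KO muscle (adjusted p = 9.51e-04). Gmip, the Gem-interacting protein, rose by 0.68 ± 0.21 in WT muscle (adjusted p = 0.0254) and changed by 0.46 ± 0.21 in KO muscle (adjusted p = 0.0972). Rock1, a kinase that Gem restrains, changed by 0.23 ± 0.34 in WT (adjusted p = 0.630) and rose by 1.21 ± 0.34 in KO muscle (adjusted p = 0.0125). Ywhae, a 14-3-3 protein, changed by -0.24 ± 0.17 in WT (adjusted p = 0.294) and fell by 0.59 ± 0.17 in KO muscle (adjusted p = 0.0161).

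The genes most like each member were found by Pearson's r over the 12 arrays among 12794 named genes. For Rrad these were Cpne2 (0.996), A430010J10Rik (0.993) and Ttc9 (0.990). For Cacng1 the first was Tnfrsf1a (0.989), for Cacng6 Zfp280b (0.986), for Cacna2d1 Ndufa3 (0.971), for Cacnb1 Klhdc10 (0.970), for Cacna1s Smarcd3 (0.933) and for Gem Lpar6 (0.945). For Rem1 they were Mrvi1 (0.975), Hspa12b (0.959) and Itga6 (0.952). All 12 arrays share the split into control and denervated muscle, so that such values describe a shared response across groups and are given with no test.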

How the data were processed

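Per the file headers, the spot intensity in the deposited files comes from Agilent Feature Extraction 10.7.3.1 (the submitters' processing notes name 10.5.1.1), background-subtracted and detrended, with no normalization between arrays. The authors' deposited value table holds intensity that is nearly equal in its quartiles on every array, by a method not given in the sources used here. Control and outlier spots were left out, spots of a probe averaged, log2 taken and the array's 75th percentile subtracted. Probes well above background on all 3 arrays of at least 1 group were kept (22517 of 41174), and the one with the highest mean stood for its gene. limma 3.58.1 in R 4.3.3 (lmFit, eBayes, two-sided) was fitted on 12 arrays with 4 group means with Benjamini-Hochberg adjustment over all 15221 genes, or over all kept probes where single probes are tested. Of these genes, 226 lacked a value on an array and were fitted on the rest; none of the 8 described did. The fit was tested on simulated data. With 3 arrays a group, exact permutation could not reach a p of 0.05, so none was run.

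Deviations of WT control and denervated arrays of the same number correlated at 0.304, 0.108 and 0.233, and those of KO arrays at 0.0898, 0.0136 and 0.175. KO against WT they correlated at -0.0997 to 0.165 in control and 0.00611 to 0.298 in denervated muscle. The pairs at 0.304, 0.298 and 0.175 also share a slide, as does that of the denervated replicates 1 (0.202). So do the control pairs at 0.165 and -0.0997. The other pairs, among them the WT pairs at 0.108 and 0.233, do not. Number and slide cannot be told apart in pairs that share a slide. No label gives a pairing, and these values do not settle which arrays are paired. Slide was read from the headers. Named were all 8 genes, every measured channel subunit gene, and from each other list up to 4 genes with the smallest adjusted p after denervation and up to 2 in other comparisons. The genes and lists were chosen with earlier results of these data known.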

Additional observations from a re-analysis of the deposited data

How the results depend on the processing

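Under the 12 settings that kept all arrays of the groups compared and the 12 that left out 1 array each, the rise of Rrad and Cacng1 and the fall of Cacng6 kept their direction and stayed called in both genotypes, though normexp background correction lowered Rrad in WT to 5.33 from 6.53 and Cacng6 in KO muscle to -1.46 from -2.25. With normexp alone the calls for Rem1 in both genotypes and for Cacna2d1 in KO muscle were lost, the Cacna2d1 change being no smaller (-0.67 against -0.60) and its SE larger (0.26 against 0.14) (Rem1 was not tested where all 12 arrays had to be well above background), so that 3 members were then called in KO muscle. Averaging the kept probes of a gene called 1 member, Cacna1s, between KO and WT denervated muscle.

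Directions turned for values that had not passed, apart from Rem1. For Cacna1s the KO change became 0.19 after quantile normalization and 0.20 in the deposited value table, and the WT change -0.14 with averaged probes and -0.036 with normexp. For Rem1 normexp gave 0.12 in WT denervation, -0.071 for KO against WT in control and -0.22 in denervated muscle, and -0.15 for the interaction, and the slide as a fixed block gave -0.069 for the control muscles. For Gem the WT change was -0.67 with slide as a fixed block and -0.13 as a random block, and the control muscles differed by -0.036 with the fixed block. For Cacnb1 the WT change was 0.14 with that block. For Cacna2d1 the control muscles differed by 0.012, 0.025 and 0.032 with the array median, averaged probes and normexp. The cause was not tested.

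With single arrays left out, the WT change ran from -0.44 to 0.39 for Gem and from -0.11 to 0.27 for Cacna1s, and KO against WT in control muscle from -0.40 to 0.43 for Gem, -0.036 to 0.088 for Rem1, -0.044 to 0.34 for Cacna1s, -0.070 to 0.080 for Cacna2d1, -0.036 to 0.18 for Cacnb1 and -0.099 to 0.19 for Cacng6. Members called in KO muscle ran from 5 to 7.

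The replicate number as a block left 4 members called in WT muscle and called Cacna1s in KO muscle as well (-0.52, adjusted p = 0.0358). A block of number within genotype, chosen after seeing the data, called Cacna1s (adjusted p = 0.0278) and Gem (1.34, adjusted p = 0.00366) there. These blocks of number changed no other call. Slide as a random block called Cacnb1 in KO muscle (-0.44, adjusted p = 0.0411). No label pairs KO arrays of the same number, and those numbered 3 also share slide 3.

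Over all genes, calls fell with normexp to 1909 in WT and 2721 in KO muscle, from 5977 and 7142, and to 25 from 333 between KO and WT denervated muscle. In that last comparison 204 were called without a filter, 126 with only the groups compared, and 152 to 324 with arrays left out. For the interaction 28 genes became 0 to 51 over all settings. Scaling by the array median moved the genes higher in KO denervated muscle from 146 of 333 to 117 of 363, and those with the higher KO change in the interaction from 15 of 28 to 10 of 24. With normexp 17 of those 25 were higher in KO denervated muscle, and 724 of the 1909 were higher after denervation in WT, from 2845 of 5977. With the replicate block 6 of 21 in the interaction had the higher KO change. In control muscle 0 to 5 genes were called. Dim signal limits Rem1, Cacna1h, Cacng7 and Ryr3.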

Other observations

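After removal of group means, Cacnb1 and Cacng6 varied together over the 12 arrays (r = 0.76), the highest of the 28 pairs of the 8 genes, and Rem1 and Cacng1 came next (r = 0.60). Such values share the arrays and their scaling, and are given as a description. Rrad and Cacng1, both higher after denervation, had r = 0.96 over the 12 arrays and 0.39 after removal of group means.

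A probe named AK046959, which the files describe as a cDNA of an alpha2delta subunit (chr5:15841192-15841251, plus strand, mm8), lies near the Cacna2d1 probes and was not well above background on any array.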
